A study of Arabidopsis thaliana with 24 samples.

Results

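The comparison described here set sdg8-5 shoots against WT shoots after a resupply of both sucrose and light, on the 6 of the 24 arrays of the series whose labels name that treatment. The members were taken by the labels alone. All 3 sdg8-5 arrays and all 3 WT arrays given 1% sucrose in 70 uE light were used, and every probe set that reached an intensity of 40 on at least 1 of the 24 arrays was tested. That left 21552 of 22810 probe sets, among them 12431 named genes, each read through its brightest probe set.

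sdg8-5, earlier called cli186, is a fast-neutron line that lacks SDG8 (AT1G77300) with its promoter and part of the neighbouring AT1G77310. WT is the unmutagenized parent line, and both lines carry the same pASN1-HPT2 reporter transgene. Plants of both genotypes were grown hydroponically for 3 weeks on medium with sucrose in long days, then kept for 24 h without sucrose in darkness, and then given 1% sucrose in 70 uE light for 2 h. The other 18 arrays hold the same 2 genotypes after 2 h without sucrose in darkness, with sucrose in darkness, or without sucrose in light. RNA of shoots from 3 sets of biological replicates was hybridized to Affymetrix ATH1 arrays. The mutant is 1 line, so a change that came with another lesion of that line cannot be told apart from one that came with the loss of SDG8.

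SDG8 (SET DOMAIN GROUP 8) is a histone methyltransferase that places methyl groups on lysine 36 of histone H3, a mark found along the bodies of transcribed genes. Loss of SDG8 in Arabidopsis is known for early flowering and for altered branching, defense and carotenoid content. Sucrose and light are the main signals of energy supply in a shoot, and starved shoots change the expression of many genes within hours of receiving them.

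SDG8 itself had no named probe set in the annotation used here, so its own transcript was not read. None of the 6 nearest measured genes on its sides passed the test. AT1G77280 averaged 243 ± 0.255 in sdg8-5 and 236 ± 77.6 in WT, and AT1G77350 averaged 1278 ± 141 in sdg8-5 and 1326 ± 93.0 in WT (SD, n = 3 each). Array medians lay between 208 and 223 in both groups, and pairs of arrays of the same genotype correlated at r = 0.93 to 0.941 on the log2 scale, against 0.918 to 0.933 for pairs of different genotype. The arrays were less even in the 3' to 5' signal ratio of actin. For replicates 1, 2 and 3 it was 8.32, 15.8 and 34.1 in sdg8-5 and 9.05, 11.1 and 25.7 in WT. This ratio rose with replicate number in both genotypes, and the groups overlapped. Its effect on the calls was not tested. The shoot marker RCA (rubisco activase) was bright, at 9905, 10162 and 10390 in sdg8-5 and 11396, 10320 and 12988 in WT. The root marker PYK10 was bright too, at 8383, 5225 and 6084 in sdg8-5 and 4453, 6930 and 5352 in WT, so that the groups overlapped. All 3 measured root markers (PYK10, EXPA7 and EXPA18) had a positive log2 change, 0.23 to 1.28, and none passed the test. Their summed level ranged over 5342 to 8581 in sdg8-5 and 4549 to 7011 in WT. Both measured flower and pollen markers were dim, with means under 40 in both genotypes. The part of root RNA in the results was not tested. In RNA of whole shoots, fewer cells of a type and less RNA per cell cannot be told apart.

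With sucrose and light, 187 named genes were lower in sdg8-5 than in WT and 84 were higher at a false discovery rate (FDR) under 0.05 (limma, adjusted over all probe sets tested), which was 1.5% and 0.676% of the genes tested. At an unadjusted p under 0.05 there were 1732. Among the probe sets with no gene name here, 121 were lower and 82 were higher of 8922. For each of the 271 called genes, the 3 sdg8-5 arrays lay wholly on one side of the 3 WT arrays. Over all named genes, 10.1% lay wholly below and 9.44% wholly above. The calls were made on these same arrays, so this separation is not separate evidence. The median change was -1.17 on the log2 scale for the lower genes and 1.00 for the higher genes, and 126 lower and 42 higher genes had changed by more than 2-fold. The median of all named genes was 0.01.

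These calls rest on a spread estimated over all 24 arrays. When the 6 arrays were fitted alone, 7 genes were lower and 1 was higher. When 1 array was left out, the counts of lower and higher genes were 142 and 53 without sdg8-5 replicate 1, 117 and 39 without sdg8-5 replicate 2, 106 and 33 without sdg8-5 replicate 3, 123 and 52 without WT replicate 1, 97 and 52 without WT replicate 2, and 142 and 67 without WT replicate 3. 1 technical value lay apart between the genotypes. The control probe set for 25S ribosomal RNA read 1196, 498 and 837 in sdg8-5 and 371, 423 and 399 in WT, a log2 difference of 0.999 (two-sided exact permutation test, p = 0.1, the smallest that 20 relabellings allow). By limma this difference did not pass (SE 0.585, FDR 0.481). Fitted with this 25S signal as a term, sdg8-5 had 133 lower and 51 higher genes. Of the 72 called genes chosen to be named, 22 lost their call. The 25S signal was higher in sdg8-5 in the other treatments too (log2 1.26, 1.78 and 2.21). The term thus overlaps with genotype, and a call lost with it need not mean a smaller change.

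The largest falls were in genes that were nearly silent in the mutant. AT1G67620 read 14.3, 11.8 and 6.79 in sdg8-5, against 276, 306 and 314 in WT. AT3G62220 read 18.8, 14.3 and 10.9 in sdg8-5, against 263, 291 and 350 in WT. Every mutant array was below the cutoff of 40 and every WT array was several times above it. The fitted changes were -4.83 ± 0.29 for AT1G67620 (log2 ± SE, limma FDR 5.63e-08) and -4.39 ± 0.51 for AT3G62220 (FDR 7.39e-05). Since values this low are close to the background of the array, the folds depend on how low values are treated, and with 16 added to every value before the log they were -3.55 and -3.37. AT5G60030, AT2G04230, AT1G80960 and AT4G01920 likewise averaged under 40 in sdg8-5, with changes of -4.53, -3.0, -2.98 and -2.51. The call for AT1G80960 held without each of the 6 arrays in turn, but those for AT5G60030 and AT2G04230 were lost without any 1 of them, and that for AT4G01920 was lost without any 1 of them other than sdg8-5 replicate 3 (highest FDR 0.147, 0.158 and 0.12). In all, 15 of the 187 lower genes averaged under 40 in sdg8-5.

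**Figure D1:**
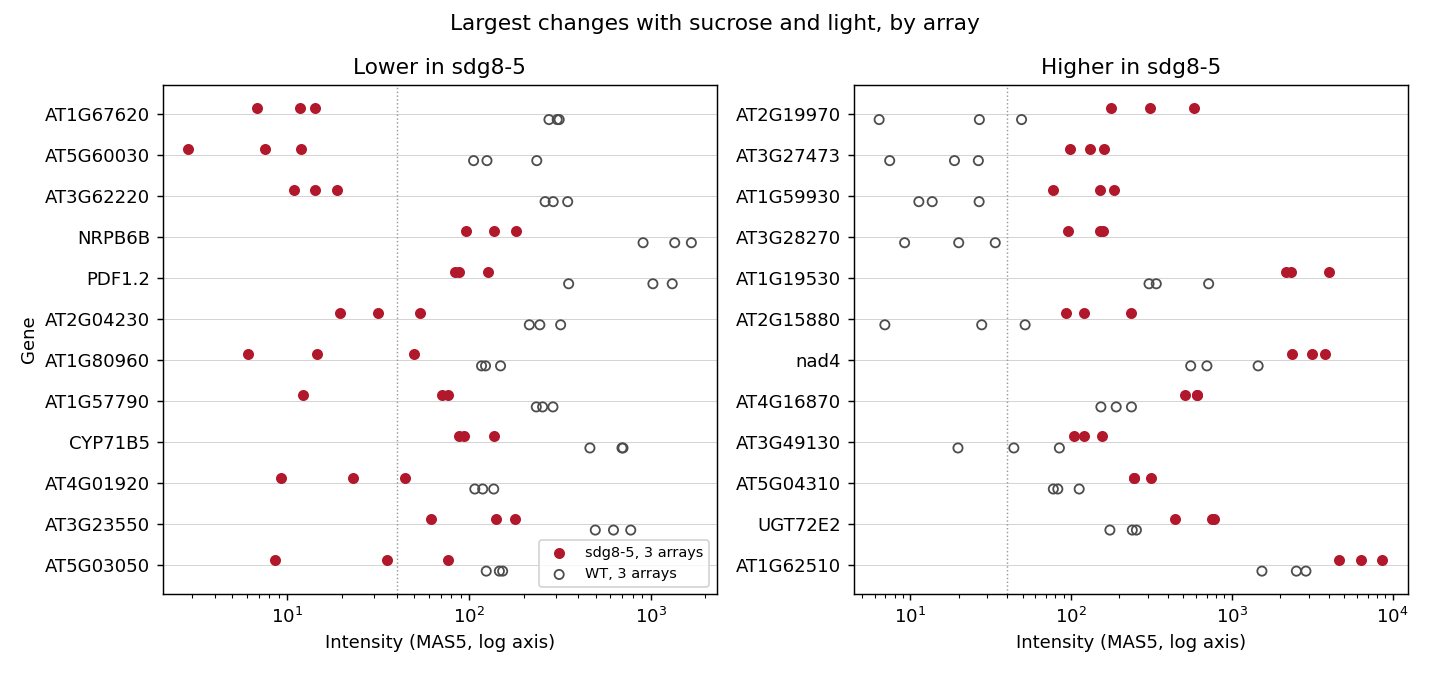
Intensity on each array (log axis) of the 12 named genes with the lowest and the 12 with the highest log2 change that passed FDR 0.05 with a group mean of at least 100 (filled, 3 sdg8-5 arrays; open, 3 WT arrays). The dotted line marks the cutoff of 40, and the groups do not overlap for any of the 24 genes.

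NRPB6B, one of a pair of genes for a small subunit of RNA polymerase II, fell the most among genes that stayed measurable. It read 182, 138 and 96.9 in sdg8-5, against 909, 1676 and 1357 in WT, 9.47-fold lower (log2 -3.24 ± 0.29, FDR 7.38e-06). Its partner NRPB6A read 966, 1043 and 1509 in sdg8-5 and 1123, 1170 and 1129 in WT, and the groups overlapped (log2 0.01 ± 0.21). Of the 6 polymerase subunits measured, from 19 listed, NRPB6B alone passed the test (1.5% of all named genes were lower), and the median of the list was -0.21.

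CYP71B5, a cytochrome P450 of a family with roles in specialized metabolism, read 93.8, 87.8 and 137 in sdg8-5, against 705, 696 and 463 in WT (log2 -2.55 ± 0.24, FDR 2.10e-05). CYP71B36 of the same subfamily was lower too, at -1.87 ± 0.41 (FDR 0.0185). CYP84A4 was the only P450 called higher, at 1.02 ± 0.25 (FDR 0.0344), which makes 2 lower and 1 higher of 21 measured (1.5% and 0.676% of all named genes), with a family median of -0.29. The CYP71B36 call was lost without WT replicate 1, WT replicate 2, sdg8-5 replicate 2 or sdg8-5 replicate 3 and with the 25S covariate (FDR 0.058), and the CYP84A4 call was lost without any of the 6 arrays. Among 27 serine carboxypeptidase-like genes, enzymes known as acyltransferases or proteases, scpl20, SCPL32 and scpl50 were lower and none was higher (1.5% and 0.676% of all named genes, family median -0.16). scpl20 read 312, 248 and 276 in sdg8-5, against 687, 621 and 658 in WT (log2 -1.24 ± 0.19, FDR 0.00145). SCPL32 was dim (means under 100 in both genotypes) and its call, like that of scpl50, was lost without single arrays: without sdg8-5 replicate 1, sdg8-5 replicate 3, WT replicate 2 or WT replicate 3 for SCPL32 and without any of the 6 for scpl50.

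The defensin gene PDF1.2, a marker of jasmonate and ethylene responses, read 88.2, 127 and 83.6 in sdg8-5, against 354, 1315 and 1029 in WT (log2 -3.0 ± 0.64, FDR 0.0173). WT replicate 1 was low among the WT arrays yet above all 3 mutant arrays. The call was lost without sdg8-5 replicate 1, sdg8-5 replicate 3, WT replicate 2 or WT replicate 3, where the FDR reached 0.0965, and with the 25S covariate (FDR 0.0601). The close copy PDF1.2b, whose probes may share transcripts with it, read 301, 304 and 151 in sdg8-5 and 260, 1524 and 1411 in WT and did not pass (log2 -1.78 ± 0.81, FDR 0.311), and the thionin gene THI2.1 had a change of -0.83 (FDR 0.661). Of the 28 genes on the jasmonate list 3 were measured under a name, and 1 of these was lower (1.5% of all named genes).

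Several bright genes fell by a smaller factor. AT4G10300, a cupin-superfamily gene, read 802, 789 and 671 in sdg8-5, against 2146, 2409 and 2523 in WT (log2 -1.65 ± 0.17, FDR 2.72e-05). AT4G19860, of the alpha/beta-hydrolase superfamily, read 546, 639 and 691 in sdg8-5, against 1406, 1438 and 1442 in WT (log2 -1.20 ± 0.13, FDR 5.13e-05), and AT3G50270, an acyltransferase-family gene, was lower by -1.67 ± 0.18 (FDR 4.54e-05). All 3 genes kept their call without each of the 6 arrays. The study had put them on its list of genes with a genotype by light effect, which it chose on these same arrays, so that the list is not independent evidence of a direction. Of its 79 members measured, 24 were lower and 1 was higher (1.5% and 0.676% of all named genes), with a median of -0.68. AT3G16670 was bright on all 6 arrays, at 6175, 6369 and 4494 in sdg8-5 and 9477, 9062 and 11776 in WT (log2 -0.84 ± 0.20, FDR 0.0329). ATMDAR2, a monodehydroascorbate reductase that returns ascorbate to its reduced form, was lower by -0.85 ± 0.20 (FDR 0.0326), and AT1G51805, a leucine-rich repeat protein kinase gene, by -0.78 ± 0.18 (FDR 0.0273). The call for AT3G16670 was lost without any of the 6 arrays, that for ATMDAR2 without sdg8-5 replicates 2 and 3 or WT replicates 2 and 3, each left out alone, and that for AT1G51805 without any array other than WT replicate 3. With the 25S covariate none of these 3 calls held (FDR 0.0603, 0.0701 and 0.0901), with changes of -0.87, -0.86 and -0.71.

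APS3 and APS4, plastid ATP sulfurylases that activate sulfate for assimilation, were both lower. The sulfate list had 24 genes, and these were 2 of the 3 measured under a name (1.5% of all named genes were lower). APS4 read 1046, 859 and 1167 in sdg8-5, against 2212, 1954 and 1777 in WT (log2 -0.96 ± 0.21, FDR 0.0180), and APS3 read 287, 254 and 290 in sdg8-5, against 516, 441 and 420 in WT (log2 -0.73 ± 0.15, FDR 0.0160). SIR, the sulfite reductase further along the same pathway, overlapped between genotypes (0.13 ± 0.19). The APS3 call was lost without sdg8-5 replicate 2 or WT replicate 1, and the APS4 call without sdg8-5 replicate 2, WT replicate 1 or WT replicate 2 (highest FDR 0.0898). Of 34 listed genes of glucosinolate synthesis and breakdown, 4 were measured (BCAT4, AT2G31790, GSTU20 and UGT74B1). All 4 had negative changes (6074 of all 12431 named genes did), -0.32 to -1.05 with a median of -0.87, and none passed. The FDR was lowest for BCAT4, a methionine aminotransferase of side-chain elongation, at 0.111.

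Of the photosynthesis lists, 10 of 52 nuclear photosystem and light-harvesting genes, 7 of 34 Calvin cycle and photorespiration genes, 9 of 27 chlorophyll synthesis genes and 69 plastid-encoded genes were measured under a name. None of these passed in either direction, where 1.5% of all named genes were lower and 0.676% higher. Their medians were -0.10, -0.23, -0.18 and -0.08. Negative changes were seen in 7 of 10, 7 of 7, 7 of 9 and 42 of 69 of them, against 6074 of all 12431 named genes. SBPASE, a bisphosphatase of the Calvin cycle, came closest at -0.63 ± 0.18 (FDR 0.0732). Of 11 measured energy-metabolism genes that the study listed as lower on these arrays and hypomethylated at H3K36 in sdg8-5, APS3, APS4 and AT3G01850, a carbon-fixation pathway gene, were lower and the median was -0.60. Being lower was part of how that list was made, so its count is not independent evidence. The AT3G01850 call (-0.90, FDR 0.0173) was lost without sdg8-5 replicate 1, WT replicate 1 or WT replicate 2 (highest FDR 0.0974) and with the 25S covariate (FDR 0.0557). Of the 7 measured from its energy-metabolism list of direct targets, none passed (median -0.12). The 22 measured genes that the study listed as gaining H3K36me3 with carbon and light in WT had a median of -0.13 and none passed, and neither of the 2 on the corresponding sdg8-5 list did. The genes it tested singly by chromatin immunoprecipitation and measured under a name here were AT1G56220 and PGRL1B, at -0.06 ± 0.22 and -0.17 ± 0.19.

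**Figure D2:**
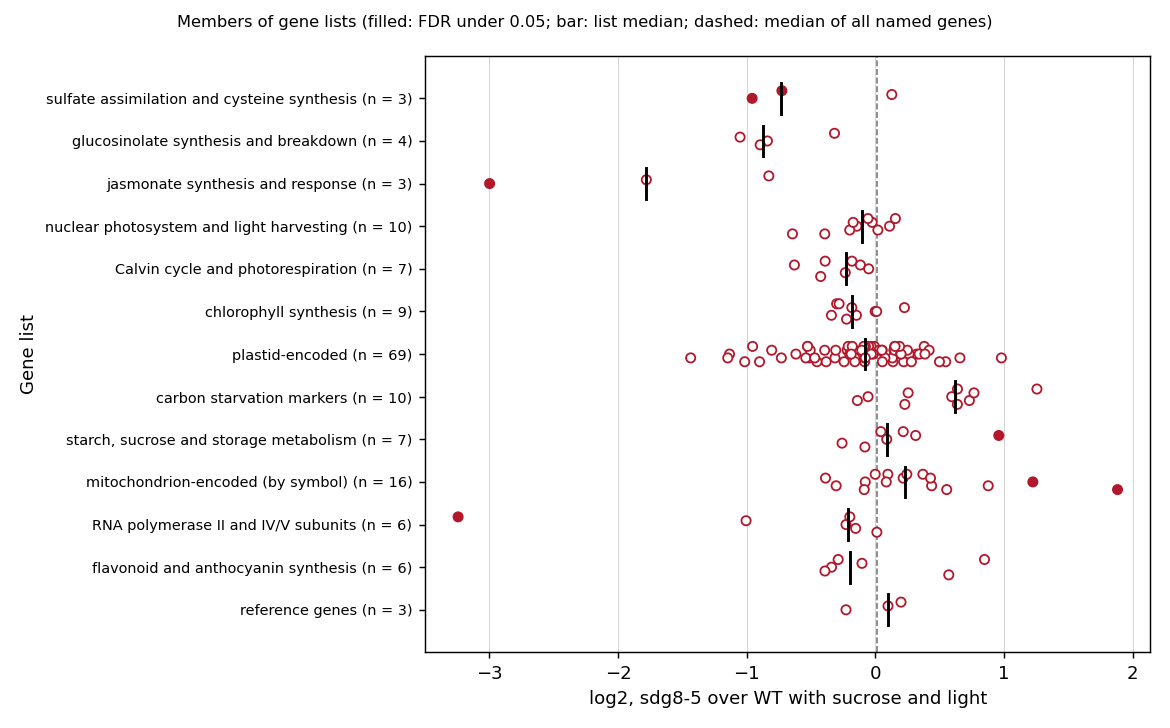
Log2 change of sdg8-5 over WT with sucrose and light for each measured member of 13 gene lists (filled, FDR under 0.05; bar, list median; dashed line, median of all named genes). The sulfate and jasmonate lists hold filled points left of 0. The photosystem, chlorophyll synthesis and plastid-encoded lists have points on both sides of 0, more of them on the left. All 7 Calvin cycle and photorespiration points lie left of 0. None of these points is filled, and the carbon starvation markers lie mostly to the right with no filled point.

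The genes that were higher in sdg8-5 included many of which little is annotated here. AT2G19970 read 580, 309 and 176 in sdg8-5, against 6.41, 26.9 and 49.2 in WT (log2 3.95 ± 0.61, FDR 0.00139), and AT1G59930 read 186, 76.8 and 152 in sdg8-5, against 13.7, 11.3 and 26.8 in WT (log2 3.01 ± 0.58, FDR 0.00765). The WT arrays of AT1G59930 all lay below 40, as did the WT mean of 10 of the 84 higher genes. AT4G16870 rose 3.01-fold, with 513, 609 and 606 in sdg8-5 and 238, 153 and 191 in WT (FDR 4.42e-05). UGT72E2, which glucosylates lignin precursors, read 755, 775 and 441 in sdg8-5, against 255, 174 and 240 in WT (log2 1.53 ± 0.28, FDR 0.00617). With UGT76D1 (1.23 ± 0.21, FDR 0.00276), it made 2 higher and none lower of 50 UDP-glycosyltransferases, against 0.676% higher and 1.5% lower of all named genes. DPE1, the plastid disproportionating enzyme of starch breakdown, read 449, 407 and 485 in sdg8-5, against 242, 181 and 277 in WT (log2 0.96 ± 0.18, FDR 0.00700). It was the 1 gene called of 7 on the list of starch, sucrose and storage metabolism (0.676% of all named genes were higher). Each of these 6 genes kept its call without each of the 6 arrays.

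2 of 16 mitochondrion-encoded genes were higher, against 0.676% of all named genes. nad4, a subunit of respiratory complex I, read 3139, 2380 and 3799 in sdg8-5, against 1457, 700 and 555 in WT (log2 1.88 ± 0.33, FDR 0.00351), and ccb382, of cytochrome c biogenesis, read 1035, 759 and 1151 in sdg8-5, against 493, 409 and 351 in WT (log2 1.22 ± 0.23, FDR 0.00748). The ccb382 call was lost without sdg8-5 replicate 3 (FDR 0.0516). The other complex I genes (nad1, nad2, nad4L, nad5, nad6, nad7 and nad9) had changes of -0.30 to 0.88, all overlapping between genotypes, and the list median was 0.23. With the 25S signal as a covariate, nad4 was at 1.77 (FDR 0.0163) and ccb382 at 1.08 (FDR 0.0321).

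A set of very bright genes was higher in sdg8-5 with sucrose and light while their levels in starved shoots were higher still. AT1G19530 read 2317, 2184 and 4005 in sdg8-5, against 305, 717 and 339 in WT (log2 2.70 ± 0.44, FDR 0.00230). AT4G27450 read 8481, 7122 and 8103 in sdg8-5, against 1817, 3980 and 3029 in WT (log2 1.49 ± 0.30, FDR 0.0102). AT2G15960 read 4862, 4629 and 4686 in sdg8-5, against 1677, 2817 and 2340 in WT (log2 1.08 ± 0.21, FDR 0.00750). Without sucrose in darkness, AT2G15960 averaged 14002 ± 2423 in sdg8-5 and 13385 ± 2088 in WT, and AT4G27450 averaged 18846 ± 2953 in sdg8-5 and 14767 ± 1352 in WT (SD, n = 3 each), and neither difference passed there (FDR 0.93 and 0.636). Without sucrose in light the changes were 2.58 for AT1G19530 (FDR 0.00322), 0.90 for AT2G15960 (FDR 0.0269) and 1.16 for AT4G27450 (FDR 0.0521), so that the first 2 of these passed there too. The difference between the genotype effect with sucrose and light and the mean effect of the other treatments was 0.77 ± 0.24 for AT2G15960 and 0.99 ± 0.34 for AT4G27450, which did not pass over all probe sets (FDR 0.999 for both). The AT4G27450 call was lost without WT replicate 1 (FDR 0.0579). AT5G57760 ran the other way, with 100, 105 and 36.2 in sdg8-5, against 291, 427 and 288 in WT (log2 -2.18 ± 0.35, FDR 0.00164), and with changes of -0.71, -0.20 and -0.40 in the other treatments.

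**Figure D3:**
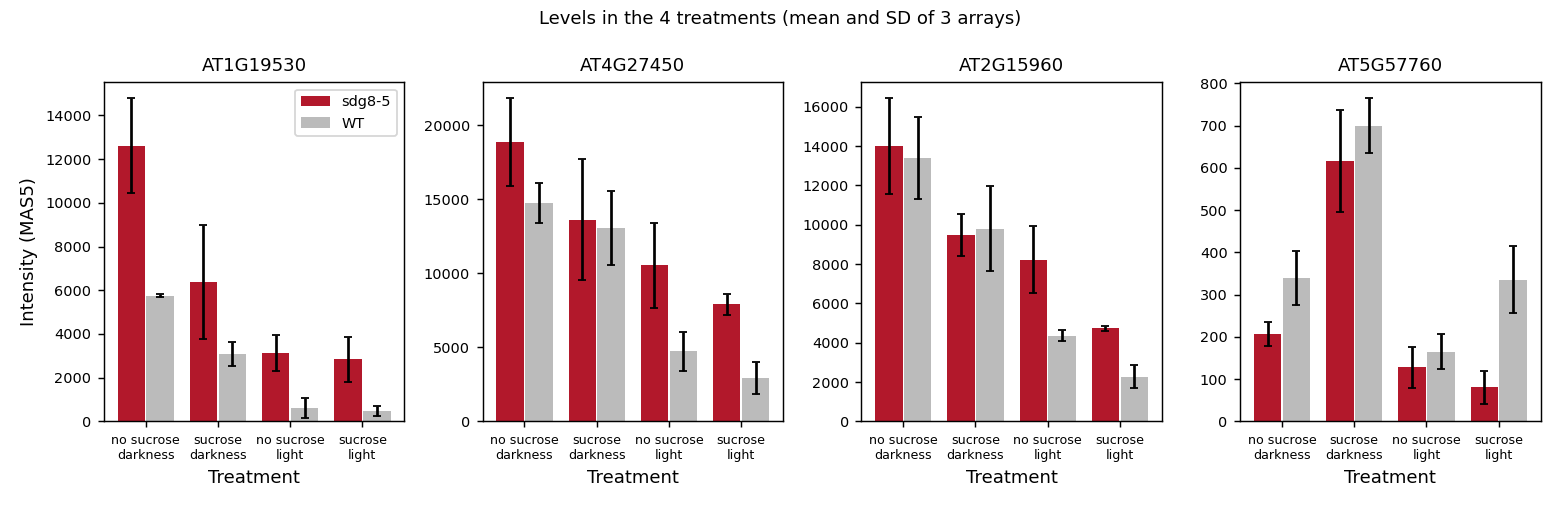
Mean intensity with SD of 3 arrays for AT1G19530, AT4G27450, AT2G15960 and AT5G57760 in each treatment (left bar of each pair, sdg8-5; right bar, WT; each panel has its own axis from 0). With sucrose and light the first 3 genes are higher in sdg8-5 and AT5G57760 is lower, and the levels of the first 3 are highest without sucrose in darkness.

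Of 10 measured markers of carbon starvation, genes known to be expressed when sugar runs out, 8 had a positive change and none passed the test, with a median of 0.62 against 0.01 for all named genes, or 0.48 with the 25S covariate. MCCA, a subunit of methylcrotonyl-CoA carboxylase in leucine breakdown, read 877, 838 and 1347 in sdg8-5 and 554, 282 and 465 in WT (log2 1.26 ± 0.34, FDR 0.0621). ETFQO, which passes electrons from amino acid breakdown to the respiratory chain, read 528, 515 and 679 in sdg8-5 and 454, 307 and 289 in WT (log2 0.73 ± 0.20, FDR 0.0630), AKINBETA1, a subunit of the SnRK1 kinase complex, had 0.64 ± 0.21 (FDR 0.135), and IVD, another enzyme of leucine breakdown, had 0.77 ± 0.27 (FDR 0.174). All 3 sdg8-5 arrays lay above all 3 WT arrays for each of these genes, which was also the case for 9.44% of all named genes.

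A block of neighbouring genes near the top of chromosome 5 was higher in sdg8-5. It was found after the values were seen, by reading the genes in chromosome order (gene order from the RefSeq assembly TAIR10.1) and keeping runs of genes with a mean intensity of at least 100 and a log2 change past 0.5 in 1 direction, with no more than 1 gene in succession short of it. The longest run in the genome reached from AT5G03670 (TRM28) to AT5G04560 (DME) and held 29 such genes, of which 26 were past 0.5. Its 42 measured genes, 13 dimmer ones included, held 21 of the 84 genes called higher and none of the genes called lower. On the rest of chromosome 5, 8 of 2785 genes were higher (0.287%). The next longest run, in either direction, had 7 genes. The count of 21 has no test of its own, since the run was picked from the same values.

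Changes within the run had a median of 0.82 over the 29 genes, or 1.77-fold, and ranged over -0.77 to 1.58, or 0.69 to 1.58 among the 21 that the threshold kept. The arrays read RNA only, and whether the lines hold the same number of copies of these genes was not tested. AT5G03880 read 3170, 3191 and 3987 in sdg8-5, against 1409, 1397 and 1375 in WT (log2 1.30 ± 0.11, FDR 7.38e-06). SIM (SIAMESE), a cyclin-dependent kinase inhibitor that promotes endoreduplication in trichomes, read 809, 886 and 836 in sdg8-5, against 285, 331 and 356 in WT (log2 1.39 ± 0.14, FDR 2.10e-05). DME (DEMETER), a DNA glycosylase that removes methylated cytosine, read 691, 614 and 617 in sdg8-5, against 427, 281 and 266 in WT (log2 1.01 ± 0.17, FDR 0.00275). SDP1, a lipase that releases fatty acids from stored oil, read 737, 567 and 634 in sdg8-5, against 346, 349 and 332 in WT (log2 0.91 ± 0.18, FDR 0.00868). AT5G04160, a nucleotide-sugar transporter gene, was higher by 1.20 ± 0.21 (FDR 0.00355), AT5G04310 by 1.58 ± 0.21 (FDR 0.000335) and GYRB3 by 0.86 ± 0.22 (FDR 0.0424). The calls of AT5G03880, SIM, DME, SDP1, AT5G04160 and AT5G04310 held without each of the 6 arrays, and that of GYRB3 was lost without any array other than WT replicate 3 and with the 25S covariate (FDR 0.115).

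On the right, DME was followed by SIR at 0.13 ± 0.19 and AT5G04600 at 0.19 ± 0.18, and none of the 19 bright genes within 12 measured genes of either end was called higher (median 0.10), while ATMDAR2 to its left was called lower (-0.85). On the left, TRM28 (0.54, FDR 0.609) and AT5G03700 (-0.77, FDR 0.337) overlapped between genotypes, and AT5G03880 was the first gene to pass. Inside it, AT5G03970 (0.07 ± 0.20) and AtRZ-1c (0.24 ± 0.17) were the bright genes closest to 0. The count called within the run was 16 with the 25S covariate, 19 to 21 in the alternatives that kept all 24 arrays without it, and, with 1 array left out, 14 without sdg8-5 replicate 1, 13 without sdg8-5 replicate 2, 14 without sdg8-5 replicate 3, 13 without WT replicate 1, 14 without WT replicate 2 and 18 without WT replicate 3.

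The same 29 genes were measured in the other treatments on arrays that the search did not use. Their median change was 0.89 without sucrose in darkness, 0.85 with sucrose in darkness and 0.87 without sucrose in light. In these treatments 27, 29 and 29 of the 29 had a positive change, and 19 passed FDR 0.05 as higher in each, where 1.21%, 1.29% and 0.547% of all named genes did. AT5G03880 had 1.33, 1.27 and 1.32 there, against 1.30 with sucrose and light.

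**Figure D4:**
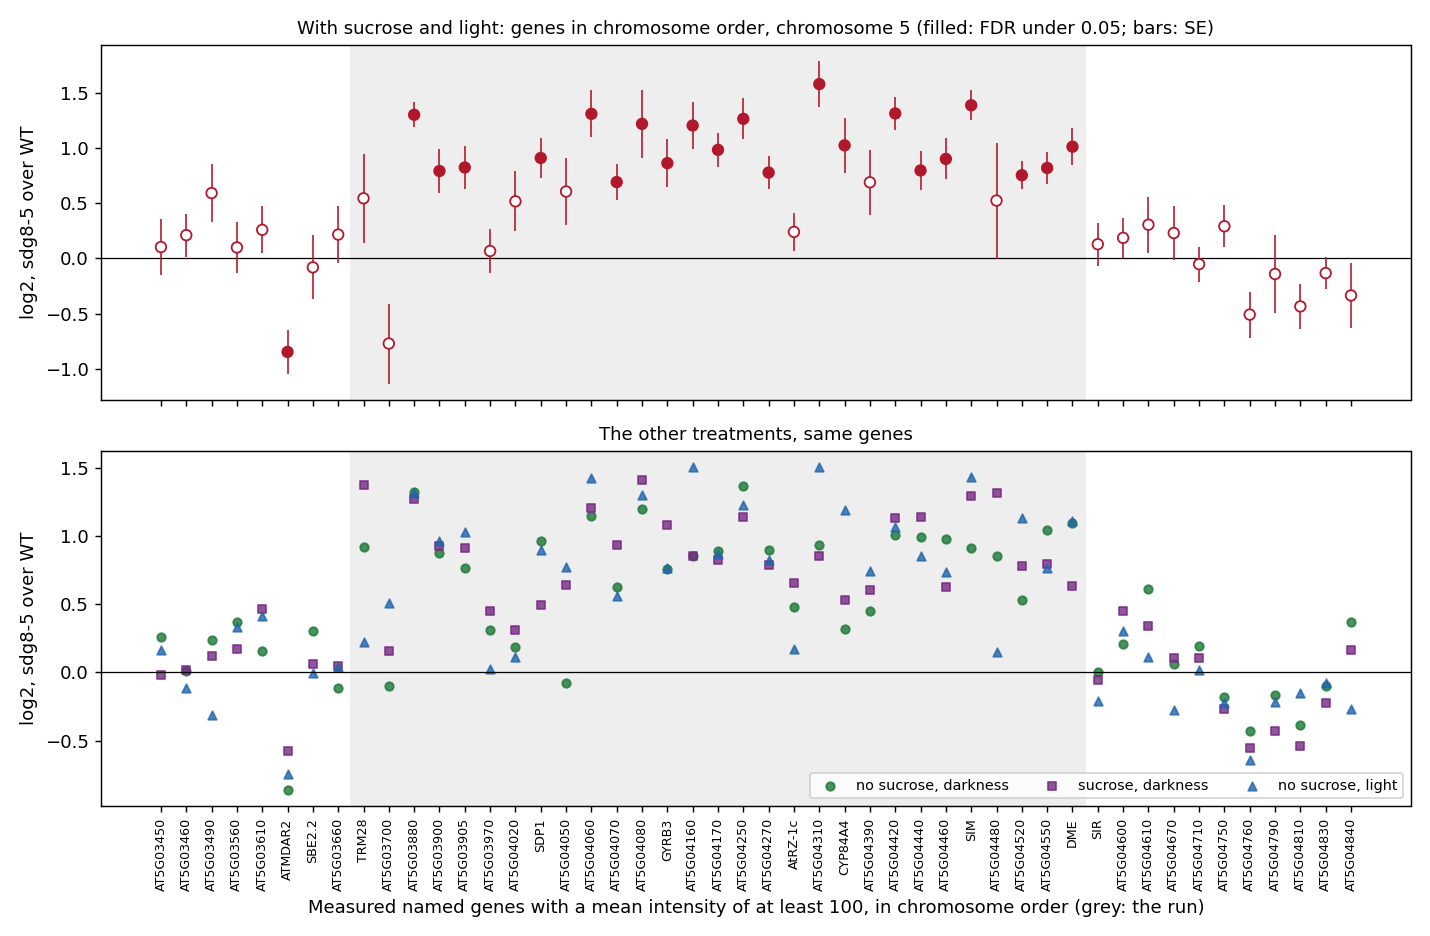
Log2 change of sdg8-5 over WT for measured genes with a mean of at least 100 in chromosome order, for the run from TRM28 to DME (grey) and its neighbours; above, with sucrose and light (filled, FDR under 0.05; bars, SE), below, the other treatments. Of the 29 genes in grey, 26 lie above 0.5 in the upper panel, and the points return towards 0 to the right of DME.

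Shorter runs were found too, 9 of lower genes and 2 more of higher genes with 4 to 7 members. The longest of them was on chromosome 4, where all 7 genes with a mean of at least 100 from AT4G13050 to AT4G13180 were past -0.5 with no overlap between genotypes. Over all named genes 10.1% lay wholly below, and the run was picked by its changes on these same arrays. AT4G13050, an acyl-ACP thioesterase gene of fatty acid synthesis, read 207, 241 and 186 in sdg8-5, against 783, 1022 and 706 in WT (log2 -1.98 ± 0.22, FDR 4.45e-05). AT4G13150 read 167, 211 and 188 in sdg8-5, against 411, 371 and 361 in WT (log2 -1.02 ± 0.19, FDR 0.00769). The other 5 did not pass, and among them AT4G13180 (-0.82, FDR 0.106) and AT4G13170 (-0.64, FDR 0.174) were bright. The median of the 7 was -0.83, and it was -0.99, -0.75 and -0.55 in the other treatments. A run of 6 lower genes from AT1G51790 to AT1G51890 on chromosome 1, among them the kinase gene AT1G51805, had a median of -0.81 with sucrose and light, and of -0.49, -0.59 and -0.05 in the other treatments. AT1G51805 itself was at -0.94 without sucrose in light (FDR 0.00772).

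The genotype effects in the other treatments come from arrays of their own and share with this comparison only the estimate of the spread. Without sucrose in darkness, 369 genes were lower and 150 higher (2.97% and 1.21%), with sucrose in darkness 398 and 160 (3.2% and 1.29%), and without sucrose in light 186 and 68 (1.5% and 0.547%). Of the 187 genes lower with sucrose and light, 179 had a negative change in all the other treatments. Of the 187, 136 were also called lower without sucrose in darkness (72.7% of the 187 and 36.9% of the 369), 134 with sucrose in darkness (71.7% of the 187 and 33.7% of the 398), and 111 without sucrose in light (59.4% of the 187 and 59.7% of the 186). Of the 84 higher genes, 78 had a positive change in all the others, and 45, 33 and 39 were also called higher (53.6%, 39.3% and 46.4% of the 84, and 30%, 20.6% and 57.4% of the genes called higher there). In all 4 treatments 94 genes were lower and 23 were higher. NRPB6B averaged 139 ± 42.8 in sdg8-5 and 1314 ± 385 in WT with sucrose and light, and 117 ± 12.3 in sdg8-5 and 1071 ± 145 in WT without either.

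**Figure D5:**
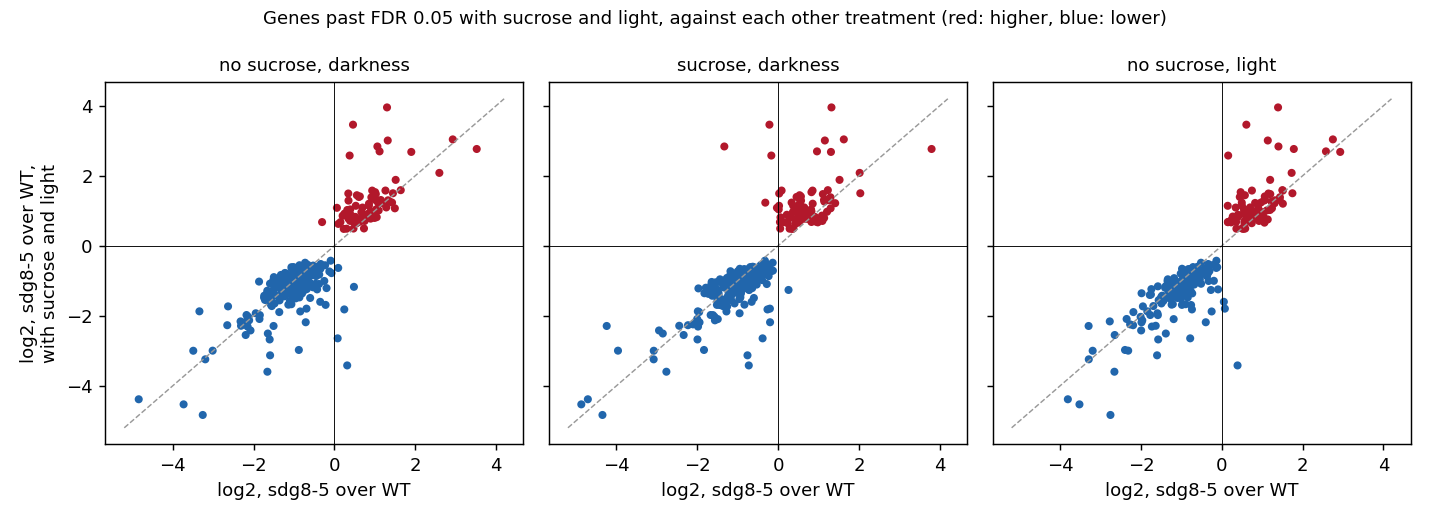
Log2 change of sdg8-5 over WT with sucrose and light (vertical) for the 271 genes called there, against the change in each other treatment (horizontal), 1 point a gene (red, higher; blue, lower; dashed line, equal changes). Most points have the same sign on both axes.

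No named gene differed between its genotype effect with sucrose and light and the mean effect of the other treatments at FDR 0.05 (limma). At an unadjusted p under 0.05, 496 of 12431 did, fewer than that threshold would pass with no difference in any gene. Leaving out sdg8-5 replicate 1 or 2 gave 1 gene with a lower effect, and leaving out WT replicate 2 or 3 gave 1 with a higher effect. 24 lower and 26 higher genes were called with sucrose and light alone, but the lowest FDR for their difference was 0.247 and 0.363, so that none was shown to be particular to this treatment. The lowest p-value for the difference was that of AT3G12150, which read 30.4, 26 and 35.1 in sdg8-5, against 103, 76.6 and 98.5 in WT (log2 -1.60 ± 0.20, FDR 0.000206), with changes of -0.35, -0.65 and 0.05 in the other treatments (difference -1.28 ± 0.23, FDR 0.247). AT1G71080 read 490, 525 and 561 in sdg8-5, against 324, 323 and 337 in WT (log2 0.68 ± 0.12, FDR 0.00539), and was at -0.30, 0.05 and 0.15 elsewhere (difference 0.71 ± 0.14, FDR 0.363). AT2G30620, one of the 6 brightest genes called lower, read 2132, 2275 and 2107 in sdg8-5, against 3034, 3697 and 3396 in WT (log2 -0.63 ± 0.11, FDR 0.00342), and was at 0.09, -0.23 and -0.14 elsewhere (difference -0.54 ± 0.13, FDR 0.615). AT1G36150, at 17.6, 23.4 and 23.6 in sdg8-5 and 93.1, 63.3 and 89.6 in WT, had changes of 0.88, 1.01 and 1.57 in the other treatments, all opposite in sign, and passed neither test (FDR 0.0703 and 0.363).

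With 1.5% of all named genes called lower and 0.676% called higher, a short list will often hold no called gene. Further lists held no gene past the threshold. These were carotenoid synthesis (2 measured), nitrogen assimilation (1), flavonoid and anthocyanin synthesis (6), flowering time (4), the circadian clock (1), light signaling (4), defense signaling (4), heat shock (3) and reference genes (3), and no gene of the histone methylation list was measured under a name. Among the flowering genes AGL24, a MADS-box gene that promotes flowering, was at -0.90 ± 0.29 (FDR 0.137), and the clock gene GI read 1298, 1581 and 1846 in sdg8-5 and 1286, 1004 and 1277 in WT (log2 0.40 ± 0.16, FDR 0.245). The reference genes PEX4, AT4G34270 and AT2G28390 were at -0.23, 0.10 and 0.20, and none passed. No member passed among the glutathione S-transferases (13), bZIP factors (20), expansins (18), xyloglucan endotransglucosylases (9), ubiquitin-conjugating enzymes (12), plant U-box proteins (9), calmodulin-like proteins (8), cellulose synthase-like genes (8), sugar transporters (16), peroxidases (9), WRKY (7) or bHLH (7) factors either.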

How the data were processed

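RNA from shoots was hybridized by the authors to Affymetrix ATH1 arrays, and the deposited values are linear signal intensities computed with MAS5, 1 per probe set and array. The genome build was not given in the sources used here. Every value column was mapped to a sample. Probe sets reaching 40 on at least 1 of 24 arrays were kept (21552 of 22810) and log2 transformed with no further normalization. limma 3.58.1 (R 4.3.3) fitted 8 group means to the 24 arrays (16 residual degrees of freedom, 1.813 prior), with Benjamini-Hochberg adjustment over all probe sets kept, and the fit was tested on simulated data. Python 3.11.15 with pandas 2.3.3 and matplotlib 3.10.9 made the summaries. The spread is that between the 3 sets of replicates, and precision is limited by how few arrays each group has.

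Of the probe sets, 13513 had 1 gene in the platform annotation, 503 had several and 8794 had none and stayed unnamed. Names were updated through RefSeq for 13436. Families were taken by symbol or synonym, and after members had been seen the patterns were narrowed to leave out genes of other families with like symbols. Members, lists and tests were chosen with earlier results of these data known. Named genes were the largest and brightest changes past FDR 0.05 with arrays apart and the higher mean at 100 or more, the lowest p-values for a difference between treatments, and list members. The search for runs of neighbours was added after seeing the data. Alternatives changed the filter, pseudocount, scaling, variance model, blocks and covariates, and left out single arrays.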

Additional observations from a re-analysis of the deposited data

Results flagged for a closer look

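The control probe set for 25S ribosomal RNA, which is no part of the gene comparison, was higher in sdg8-5, by 0.999 on the log2 scale (1196, 498 and 837 in sdg8-5, 371, 423 and 399 in WT, two-sided exact permutation p = 0.1, the smallest that 20 relabellings allow). By limma this difference did not pass (SE 0.585, FDR 0.481). In the other treatments the difference was 1.26, 1.78 and 2.21.

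For 2 probe sets with no gene name here, the genotype effect with sucrose and light differed from the mean effect of the other treatments by limma's test of the difference. Probe set 248353_at read 193, 231 and 257 in sdg8-5 and 285, 342 and 299 in WT, a log2 change of -0.45 (FDR 0.294). Its changes were -3.94, -1.14 and -1.39 in the other treatments (difference 1.7 ± 0.23 SE, FDR 0.0149). The -3.94 came from shoots without sucrose in darkness, where the means were 8.51 in sdg8-5 and 130 in WT. A mean of 8.51 is close to the background of the array. The size of that change, and of the difference that includes it, thus depends on how low values are treated. Whether the difference holds without that treatment was not tested. Probe set 267461_at read 2605, 2983 and 3900 in sdg8-5 and 727, 900 and 1117 in WT, a log2 change of 1.79 ± 0.21 (FDR 7e-05), with changes of 0.38, -0.32 and 0.66 in the other treatments (difference 1.55 ± 0.24, FDR 0.0442). Its levels were highest without sucrose in darkness, with means of 23401 in sdg8-5 and 17943 in WT.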

How the results depend on the processing

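No result changed direction under the alternatives run. With only the 6 arrays fitted, 7 genes were lower, 1 was higher and 0 of the chromosome 5 run were called. With a replicate block over the 24 arrays, 205 genes were lower and 98 higher. With the block within the 6 arrays all 3 counts were 0 by limma (1404 genes at an unadjusted p under 0.05). Same-numbered arrays deviated together at r = 0.047, -0.048 and 0.062, so the numbers were not taken to pair them. The actin 3' to 5' ratio did rise with replicate number in both genotypes, and whether same-numbered arrays were handled together was not tested. Within the arrays of lower bioC spike-in signal, 0 were lower, 0 higher and 0 in the run (1006 unadjusted), and within those of higher signal 0, 1 and 0 (1126 unadjusted), a split chosen after seeing the data. Each side of it sets 1 array of a genotype against 2 of the other, so these counts say nothing about stability. With the 25S covariate 133 were lower and 51 higher. An ANOVA on linear values gave 299 lower and 97 higher, and 4 genes with a lower effect than in the other treatments. Of the genes named by rule, 17 lost their call there and 6 gained one. Those that lost it included AT2G19970, AT1G59930, AT1G19530, AT2G15960, AT4G27450, SDP1, AT3G12150 and PDF1.2. The other settings with all 24 arrays gave 181 to 243 lower and 64 to 120 higher.

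With arrays or replicate sets left out, the counts were 34 to 142 lower, 8 to 67 higher and 4 to 18 in the run, and 0 to 1 for a difference between treatments in each direction. Of 72 called genes named by rule, 38 kept the call without each of the 6 arrays in turn and 22 lost it with the 25S covariate. Precision is limited by 3 arrays a group and, for genes near an intensity of 40, by background.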
